A study of Mus musculus with 63 samples.

Results

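The 10 genes described here are core components of the circadian clock: the activators Clock and Arntl, the repressors Per1, Per2, Per3, Cry1 and Cry2, the nuclear receptors Nr1d1 and Nr1d2, and the output factor Dbp. They were taken by symbol from the table of gene counts, with identifiers matched to GENCODE M21, and are 10 of its 55401 genes. Adolescent DBA/2J (32 libraries) and C57BL/6J (31 libraries) mice, both inbred strains, gave the RNA, taken from dorsal hippocampus, 31 libraries being from males and 32 from females. Mice had received an acute injection of ethanol (EtOH, 1.5 g/kg) or of saline, and had been fear conditioned (FC) or not (noFC). Each of the 16 combinations held 4 libraries, except fear-conditioned C57BL/6J males given saline, with 3. The labels name no transgene, give no age in days, and do not say that each library is a separate animal, so p-values measure the spread between libraries. They give no time of day for the dissections. Each library title holds a number that up to 4 libraries of 1 strain and sex share, 1 for each combination of injection and conditioning, and the labels do not say what it stands for. The 16 numbers are called sets here, and sets 1 to 4 of each strain and sex follow the order of the numbers in the titles. Sets 1 and 2 make up a first round and sets 3 and 4 a second round of numbers.

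In the mammalian clock, the proteins CLOCK and ARNTL (also called BMAL1) bind DNA together at E-boxes and switch on the Per and Cry genes, whose proteins then repress that pair. The same pair switches on Nr1d1 and Nr1d2, which encode REV-ERB alpha and beta and repress Arntl. Dbp encodes a transcription factor that activates genes through D-boxes, and its RNA is known for a large daily rhythm in many tissues, the brain included. The master pacemaker lies in the suprachiasmatic nucleus of the hypothalamus, while other brain regions, such as the hippocampus, hold clocks of their own.

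The upstream sequences of 4 members are shown because they hold short motifs of the kinds that clock proteins can bind. Binding to these sequences was not tested. RefSeq starts were given for 9 of the 10 members (13 starts), all but Per2, on GRCm38.p6. In the 250 bases before each start, both strands were searched for the E-box CACGTG, the D-box TTATGNAA, the half-site AGGTCA bound by nuclear receptors and the cAMP response element TGACGTCA. Capitals mark a match on either strand, so that TGACCT is AGGTCA read on the other strand.
Per1, chr11:69098699-69098948, plus strand: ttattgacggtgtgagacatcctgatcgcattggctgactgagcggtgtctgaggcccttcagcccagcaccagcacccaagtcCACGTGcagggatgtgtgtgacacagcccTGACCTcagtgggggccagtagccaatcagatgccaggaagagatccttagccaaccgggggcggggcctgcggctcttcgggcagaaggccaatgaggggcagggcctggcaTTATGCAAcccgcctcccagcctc
Per3, chr4:151044666-151044915, minus strand: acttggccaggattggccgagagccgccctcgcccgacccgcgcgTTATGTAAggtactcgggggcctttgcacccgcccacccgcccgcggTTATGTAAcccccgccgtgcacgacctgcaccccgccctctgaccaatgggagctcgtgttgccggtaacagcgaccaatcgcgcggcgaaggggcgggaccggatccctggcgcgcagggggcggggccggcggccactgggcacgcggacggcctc
Cry1, chr10:85185055-85185304, minus strand: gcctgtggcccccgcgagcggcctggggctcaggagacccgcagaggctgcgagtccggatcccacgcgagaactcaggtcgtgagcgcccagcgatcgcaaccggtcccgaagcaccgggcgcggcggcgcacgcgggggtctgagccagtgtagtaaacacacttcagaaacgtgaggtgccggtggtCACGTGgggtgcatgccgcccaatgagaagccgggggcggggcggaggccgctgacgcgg
Nr1d2, chr14:18239107-18239356, minus strand: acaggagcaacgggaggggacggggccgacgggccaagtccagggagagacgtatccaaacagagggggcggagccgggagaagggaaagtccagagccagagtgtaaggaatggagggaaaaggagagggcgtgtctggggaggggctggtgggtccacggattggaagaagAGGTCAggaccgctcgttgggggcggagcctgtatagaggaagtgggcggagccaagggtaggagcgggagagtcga
Per1, shown at the first of its RefSeq starts, had an E-box beginning 166 bases, a half-site 137 bases and a D-box 24 bases before the start. Per3 had a pair of D-boxes, beginning 205 and 158 bases before its start. Cry1 had an E-box at 60 bases and Nr1d2 a half-site at 77 bases. Clock had a half-site, 119 bases before 1 of its 3 RefSeq starts. No match to these letters lay in the same window of Dbp, Nr1d1, Arntl or Cry2, and no member had TGACGTCA. Over all 32817 promoters of this length, 6.02% held the E-box, 3.07% the D-box, 14.0% the half-site and 1.55% the cAMP response element.

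In GENCODE M21 (GRCm38) all 10 are protein-coding genes. Per1 lies on chromosome 11 at 69095217 to 69109960 on the plus strand, Per2 on chromosome 1 at 91415982 to 91459324 on the minus strand, and Per3 on chromosome 4 at 151003652 to 151044665 on the minus strand. Cry1 lies on chromosome 10 at 85131700 to 85185064 and Cry2 on chromosome 2 at 92403646 to 92434043, both on the minus strand. Clock lies on chromosome 5 at 76209868 to 76304792 on the minus strand and Arntl on chromosome 7 at 113207465 to 113314126 on the plus strand. Nr1d1 lies on chromosome 11 at 98767932 to 98775333 and Nr1d2 on chromosome 14 at 18204054 to 18239127, both on the minus strand.

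All 10 genes passed the filter on low counts. Library totals ran from 21027659 to 61631742 gene counts, with a median of 26379948. Cry1 had the fewest counts of the members, 232 to 896 per library, and Clock among the most, 2281 to 6633. The tissue check gave 151 CPM (counts scaled to library size) for Prox1, 196 for Wfs1 and 480 for Zbtb20, which mark hippocampal neurons, as means over the 63 libraries. Of 6 markers of the suprachiasmatic nucleus, Six6, Nms and Prok2 fell below the filter at 0.0489, 0.0259 and 0.0986 CPM, Avp and Lhx1 stood at 0.257 and 0.461 CPM, and Vip, which hippocampal interneurons also express, at 13.3 CPM. Choroid plexus markers, whose 8 summed levels ran from 30.9 to 12100 CPM between libraries, varied most among the marker lists. With their mean log2 level as a covariate, 3 of the 10 members were called for strain, against 53.1% of all genes in that fit, and 9 for the set, against 13.7%. The counts of members were the same without it.

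Levels can be compared between genes only per length, here as CPM per kilobase of the exons of each gene. Nr1d1 was the highest at 27.6 ± 2.96 CPM per kilobase (SD, n = 63 libraries here and in the rest of this paragraph), followed by Dbp at 23.8 ± 4.39. Per1 (18.7 ± 2.1), Cry2 (18.5 ± 1.31) and Nr1d2 (18.2 ± 1.53) did not differ from each other beyond their spread. Per2 (8.76 ± 1.08) and Clock (8.42 ± 0.584) followed, also within their spread, then Per3 at 6.6 ± 0.816. Arntl at 4.73 ± 0.564 and Cry1 at 3.69 ± 0.402 were the lowest. With the deposited transcript counts over transcript length, Dbp came first at 39.5 ± 7.08 and Nr1d1 second at 29.8 ± 3.22, Arntl stood at 12.5 ± 1.41, and Cry1 was again the lowest at 4.42 ± 0.673. On that measure Cry2 had 28.5 ± 1.96, Nr1d2 26.6 ± 2.38 and Per1 22.2 ± 2.65. Per3 (11.9 ± 1.59) and Clock (11.8 ± 0.806) then lay above Per2 (8.2 ± 0.996), so the order of the middle members depends on the length used. Exons of Dbp share 18.0% of their bases with Sphk2 on the opposite strand, and those of Nr1d1 share 8.55% with Thra. Whether reads were counted by strand is not given in the sources used here, so part of these counts could belong to the partner genes.

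Most of the clock genes differed between sets. With the 16 sets added as a block to the 16 groups, 9 of the 10 members changed between sets in edgeR's quasi-likelihood test (adjusted p under 0.05), all but Cry1 (adjusted p = 0.202). Over all 19974 genes tested, 9.66% were called in the same test. Dbp had the smallest p of all genes (F = 29.1 on 12 set coefficients, adjusted p = 1.35e-11). The next members were Arntl (adjusted p = 3.19e-05, rank 85), Per3 (0.000228, rank 184), Per2 (0.000286, rank 197), Nr1d1 (0.000725, rank 275) and Nr1d2 (0.00365, rank 503). Per1 (0.0198), Cry2 (0.0309) and Clock (0.0416) lay closer to the threshold. Leaving out each set in turn left 6 to 9 members called. The calls lost in this way were those of Per1 (adjusted p up to 0.102, without C57BL/6J female set 4), Cry2 (up to 0.17, without C57BL/6J female set 3) and Clock (up to 0.381, without C57BL/6J female set 4), while Dbp stayed at 2.35e-09 or below.

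**Figure D1:**
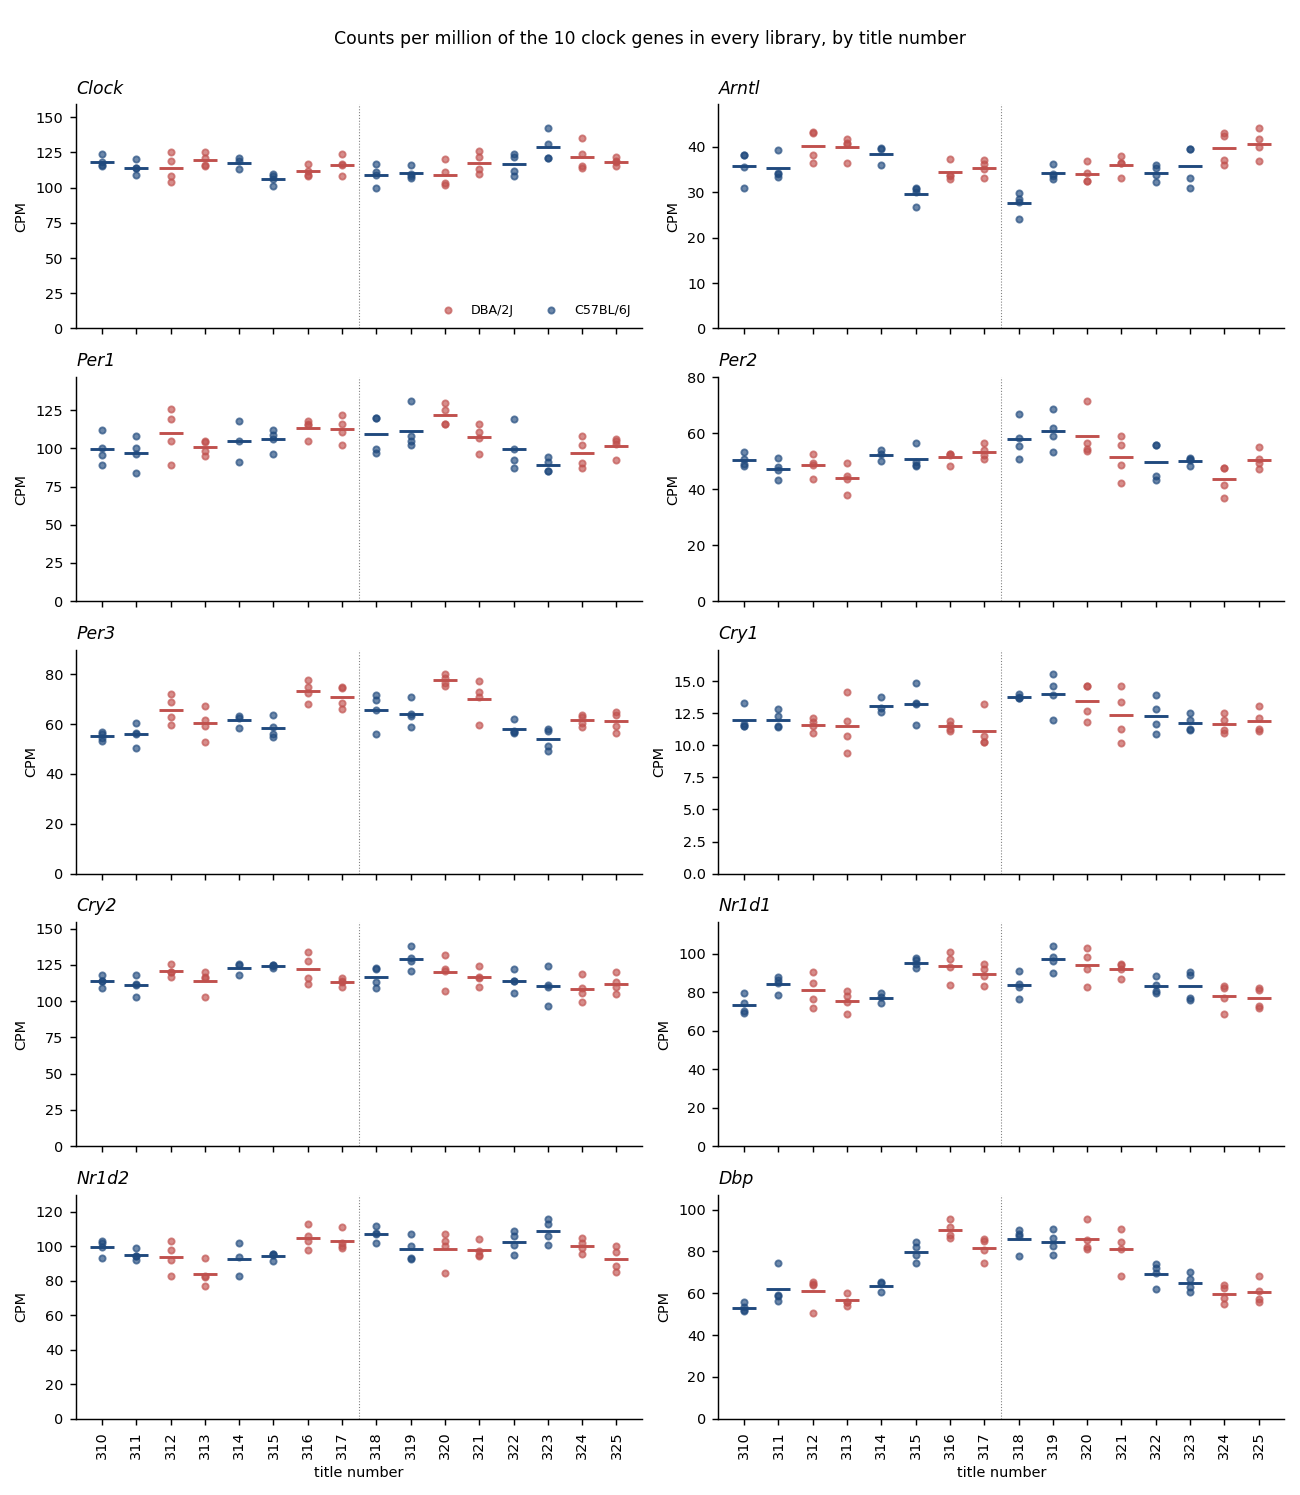
CPM of each clock gene (vertical axes, from 0) in each of the 63 libraries (points) against the number in its title, with set means as short lines, DBA/2J in red and C57BL/6J in blue; numbers run in turn through C57BL/6J males, C57BL/6J females, DBA/2J males and DBA/2J females, and the dotted line separates the first round from the second. Dbp set means lie between 53.1 and 90.3 CPM, highest in the middle of the axis, and Arntl set means between 27.5 and 40.6 CPM.

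Dbp (chromosome 7, 45705088 to 45710203, plus strand, GRCm38) had the widest span of set means among the 10 members, taken as deviations from the group means. In DBA/2J males the means of sets 1 to 4 were 60.9 ± 7.04, 90.3 ± 4.19, 86.1 ± 6.54 and 59.8 ± 4.31 CPM (SD, n = 4 libraries each). In DBA/2J females they were 56.5 ± 2.63, 81.5 ± 5.27, 81.1 ± 9.54 and 60.5 ± 5.63 CPM. Sets 1 and 4 lay below sets 2 and 3 in both sexes of this strain. In C57BL/6J females the means were 62.1 ± 8.18, 79.9 ± 4.38, 84.5 ± 5.31 and 65 ± 4.17 CPM. In C57BL/6J males it had 52.0, 55.7, 53.2 and 51.7 CPM in the libraries of set 1 and 60.7, 64.7 and 65.4 CPM in those of set 2. Set 3 of the same strain and sex had 90, 87.3, 78.0 and 88.2 CPM, and set 4 had 73.9, 69.6, 71.9 and 62.1 CPM. The libraries of a set stood together although they differ in injection and conditioning, and those of set 3 did not overlap those of sets 1, 2 or 4. Sets 2 and 3 thus had means of at least 79.9 CPM, apart from C57BL/6J male set 2 (63.6 ± 2.51 CPM), and sets 1 and 4 had means of at most 69.4 CPM, in both strains and both sexes. Single libraries overlapped: C57BL/6J female set 1 held one at 74.2 CPM and DBA/2J female set 3 one at 68.2 CPM. Of the 24 pairs of sets within a strain and sex, 16 did not overlap at all for Dbp, against 1 pair for Cry1 and 2 to 8 for the other members. This count was not made for genes outside the members, so the share over all genes is not known. As deviations from the group means, the set means of Dbp spanned 1.61-fold, against 1.19- to 1.39-fold for the other members. The median span over all genes was 1.24-fold.

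The same ordering can be given as the share of the variance within groups that lay between sets. For Dbp that share was 90.4%, the highest of all genes tested, against a median of 31.6% over all genes and 25.5% from degrees of freedom alone. It was 73.6% for Arntl, 68.6% for Per3, 67.6% for Per2, 65.7% for Nr1d1 and 60.7% for Nr1d2. Per1 (53.7%), Cry2 (52.4%), Clock (50.3%) and Cry1 (40.1%) also stood above the median of all genes. A large share did not need a wide span: the set means of Cry2 spanned 1.19-fold and those of Clock 1.21-fold, near the median span of all genes (1.24-fold).

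**Figure D2:**
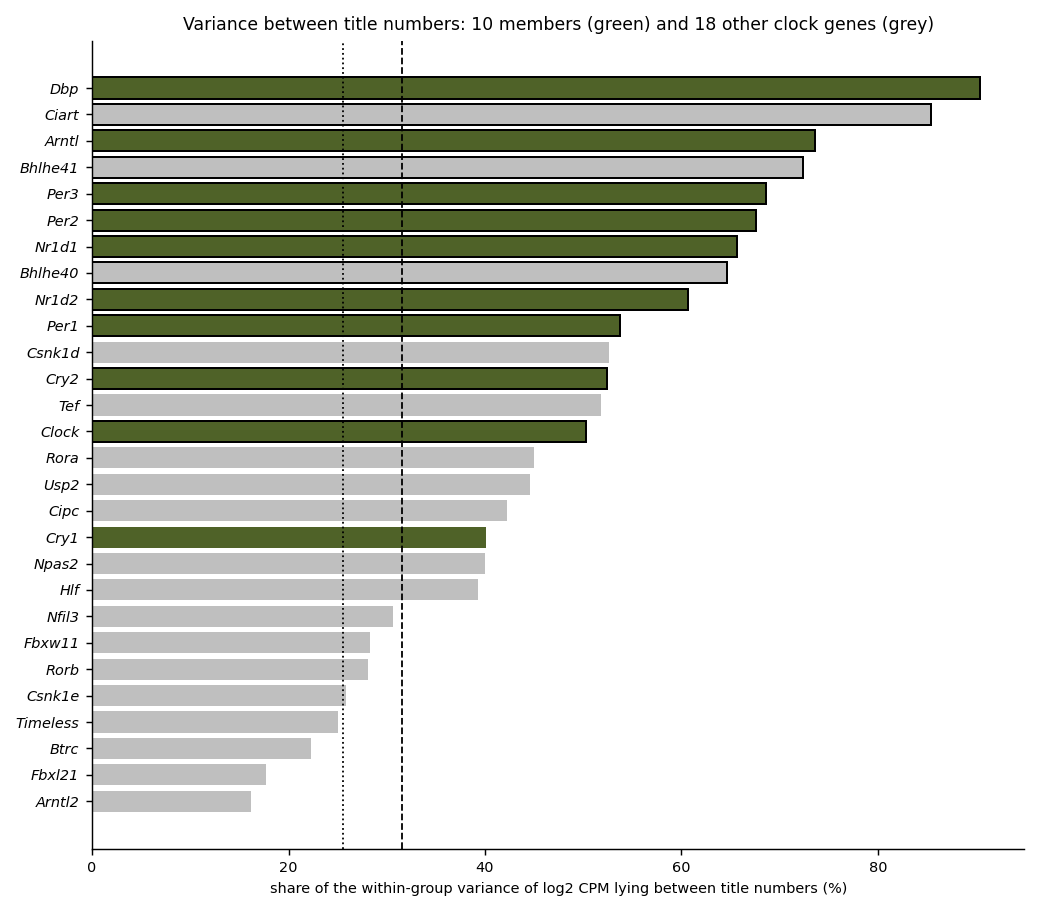
Share of the variance of log2 CPM within groups that lies between sets (horizontal axis, percent) for the 10 members (green) and 18 other clock genes (grey), with a black outline where the set test called the gene; the dashed line is the median of all genes (31.6%) and the dotted line the share from degrees of freedom alone (25.5%). Dbp (90.4%) and Ciart (85.4%) have the longest bars.

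Arntl, whose protein is the partner of CLOCK, stood opposite to Dbp. Since Arntl also differed between strains, its set means are given as log2 deviations from the group means. They were lowest in C57BL/6J male set 3 (-0.278, 27.5 ± 2.46 CPM) and C57BL/6J female set 2 (-0.18, 29.6 ± 1.96 CPM), where Dbp was high. They were highest in C57BL/6J male set 2 (0.193, 38.4 ± 2.05 CPM, SD, n = 3 libraries) and DBA/2J male set 1 (0.121, 40.2 ± 3.38 CPM, n = 4), where the Dbp means were 63.6 and 60.9 CPM. C57BL/6J female set 3 was an exception, with 84.5 CPM of Dbp and an Arntl deviation of 0.026. Within C57BL/6J males, the Arntl libraries of set 3 (24.1, 29.9, 28.4 and 27.8 CPM) all lay below those of set 1 (38.2, 35.6, 30.9 and 38.2 CPM) and set 2 (39.5, 36.0 and 39.6 CPM). Clock itself had set means between 106 ± 3.68 CPM (C57BL/6J female set 2) and 129 ± 9.76 CPM (C57BL/6J female set 4), a span of 1.21-fold.

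Among the repressors, Per3 had set means of 77.7 ± 2.23 CPM in set 3 and 73.4 ± 4.11 in set 2 of the DBA/2J males, against 61.5 ± 2.23 in set 4 and 65.8 ± 5.67 in set 1 (SD, n = 4 each). In C57BL/6J females it had 64.2 ± 4.89 CPM in set 3 and 53.9 ± 4.25 CPM in set 4. Per2 reached 60.7 ± 6.4 CPM in C57BL/6J female set 3 and 59.0 ± 8.4 in DBA/2J male set 3, and had 43.5 ± 5.12 in DBA/2J male set 4 and 43.8 ± 4.71 in DBA/2J female set 1. Per1 had 122 ± 7.03 CPM in DBA/2J male set 3 and 89.0 ± 4.47 CPM in C57BL/6J female set 4. Taken as deviations from group means, all 3 Per genes were lowest in DBA/2J male set 4 and highest in C57BL/6J female set 3 (Per1) or DBA/2J male set 3 (Per2 and Per3). Cry2 ran from 108 ± 7.9 CPM in DBA/2J male set 4 to 129 ± 7.07 CPM in C57BL/6J female set 3, and Cry1, the only member not called, from 11.1 ± 1.41 CPM in DBA/2J female set 2 to 14.0 ± 1.5 CPM in C57BL/6J female set 3.

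Of the nuclear receptors, Nr1d1 had 97.1 ± 5.64 CPM in C57BL/6J female set 3 and 95.4 ± 2.29 in C57BL/6J female set 2, against 73.4 ± 4.7 in C57BL/6J male set 1 and 75.7 ± 5.15 in DBA/2J female set 1. As deviations from the group means, its set means spanned 1.22-fold. Nr1d2 differed from it: its highest mean was 109 ± 6.9 CPM in C57BL/6J female set 4, a set in which Nr1d1 had 83.3 ± 7.82 CPM. Its lowest was 83.7 ± 6.93 CPM in DBA/2J female set 1.

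The set pattern was examined within strains and rounds, in fits chosen after seeing the data. In C57BL/6J alone 9 members were called, against 7.05% of all genes, and in DBA/2J alone 2, Dbp (adjusted p = 1.82e-05) and Per3 (0.0333), against 0.346% of all genes. With the second round alone 5 members were called, Dbp, Arntl, Per1, Per2 and Per3, against 0.658% of all genes. With the first round alone 4 were called, Dbp, Arntl, Per3 and Nr1d2, against 1.51% of all genes. Dbp had an adjusted p of 0.000105 in the second round and 9.37e-05 in the first. The mean of the second round as a whole differed from that of the first for 0 of 10 members in edgeR, against 1.35% of all genes. An unadjusted p under 0.05 was reached by 2 members and by 16.8% of all genes. The log2 difference of Dbp was 0.126 (SE 0.075, adjusted p = 0.41). For the title letters C and D against A and B, 0 of 10 members were called, as for all genes (0.0%). There, 2 members and 9.62% of all genes had an unadjusted p under 0.05.

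The mean library totals of the sets ran from 23600837 in DBA/2J male set 2 to 34521413 in C57BL/6J female set 2, whose Dbp means were 90.3 and 79.9 CPM, and the part of depth in the set differences was not tested. Of the marker lists, the set test called 0 of 6 hippocampus, 0 of 5 thalamus, 0 of 5 neocortex, 0 of 8 choroid plexus, 0 of 7 oligodendrocyte, 0 of 6 astrocyte and 0 of 4 blood markers, 1 of 5 microglia, 1 of 5 endothelial and 1 of the 3 tested suprachiasmatic nucleus markers. Over all genes 9.66% were called. Set means of the summed markers, strain differences included, still ran from 7830 to 14900 CPM for oligodendrocyte, 83.6 to 3080 for choroid plexus and 63.5 to 306 for blood markers. Those of microglia (240 to 262 CPM) and hippocampus markers (1080 to 1370 CPM) ran less widely. The part of cell composition in the set differences was not tested. In such tissue samples, fewer cells of a type and less RNA per cell cannot be told apart.

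Of the 18 other clock genes, 3 were called for the set (16.7%), against 9.66% of all genes. Ciart, which encodes a further repressor of the CLOCK and ARNTL pair, had the eighth smallest p of all genes (adjusted p = 1.38e-08). Its means ran from 6.79 ± 0.901 CPM in DBA/2J female set 1 to 12.4 ± 0.754 CPM in DBA/2J male set 3, and its r with Dbp is given below. Bhlhe41 was called at 0.000103 and Bhlhe40 at 0.00109. Both encode repressors that bind E-boxes. Tef and Hlf, which encode relatives of DBP, had adjusted p-values of 0.0533 and 0.164 and were not called, nor were Npas2 and Arntl2, which encode relatives of CLOCK and ARNTL (0.14 and 0.921).

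Many pairs of members varied together between libraries within groups. Of the 45 pairs, 34 had an adjusted p under 0.05 (permutation within groups, Pearson r over 63 libraries, two-sided), 21 with positive and 13 with negative r. Pairs of other genes were not tested in this way, so the share over all genes is not known. The permutation moved libraries across sets, so differences between sets enter these p-values. Dbp and Nr1d1 had the highest r, 0.78 (rho = 0.77, permutation p = 1e-05, the smallest that 100000 permutations can give, adjusted p = 4.5e-05). It was 0.77 without the 2 farthest libraries, 0.77 in the second round and 0.80 in the first. Dbp and Arntl had the lowest, -0.71 (rho = -0.69, permutation p = 1e-05, adjusted p = 4.5e-05), with -0.68 without the 2 farthest libraries, -0.71 in the second round and -0.70 in the first. Dbp and Per3 had r = 0.71 (rho = 0.69, permutation p = 1e-05, adjusted p = 4.5e-05), 0.70 without the 2 farthest libraries, 0.70 in the second round and 0.74 in the first.

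Once the means of the sets were removed as well, 9 of the 45 pairs had an adjusted p under 0.05 (permutation within sets). Within sets, the r of Dbp was 0.27 with Nr1d1 (adjusted p = 0.17), -0.19 with Arntl (0.36), -0.05 with Per3 (0.79) and 0.34 with Nr1d2 (0.0503), and the last had been 0.45 over all libraries (adjusted p = 0.0028). For other pairs the relation passed the threshold in both. Per1 and Per2 had r = 0.75 over all libraries (rho = 0.74, permutation p = 1e-05, adjusted p = 4.5e-05; 0.71 without the 2 farthest, 0.85 in the second round and 0.70 in the first) and 0.64 within sets (adjusted p = 0.00045). Clock and Nr1d1 had -0.65 over all libraries (rho = -0.65, permutation p = 1e-05, adjusted p = 4.5e-05; -0.64 without the 2 farthest, -0.68 in the second round and -0.72 in the first) and -0.63 within sets (adjusted p = 0.00045). Cry1 and Nr1d2 passed it only within sets, with 0.18 over all libraries (rho = 0.16, adjusted p = 0.22; 0.14 without the 2 farthest, 0.19 in the second round and 0.0 in the first), against 0.51 within sets (adjusted p = 0.0012). The means of the 16 sets, permuted across strain and sex, gave 33 of 45 pairs at an adjusted p under 0.05. Among them were Dbp with Nr1d1 (r = 0.95), Per3 (0.91) and Arntl (-0.82).

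**Figure D3:**
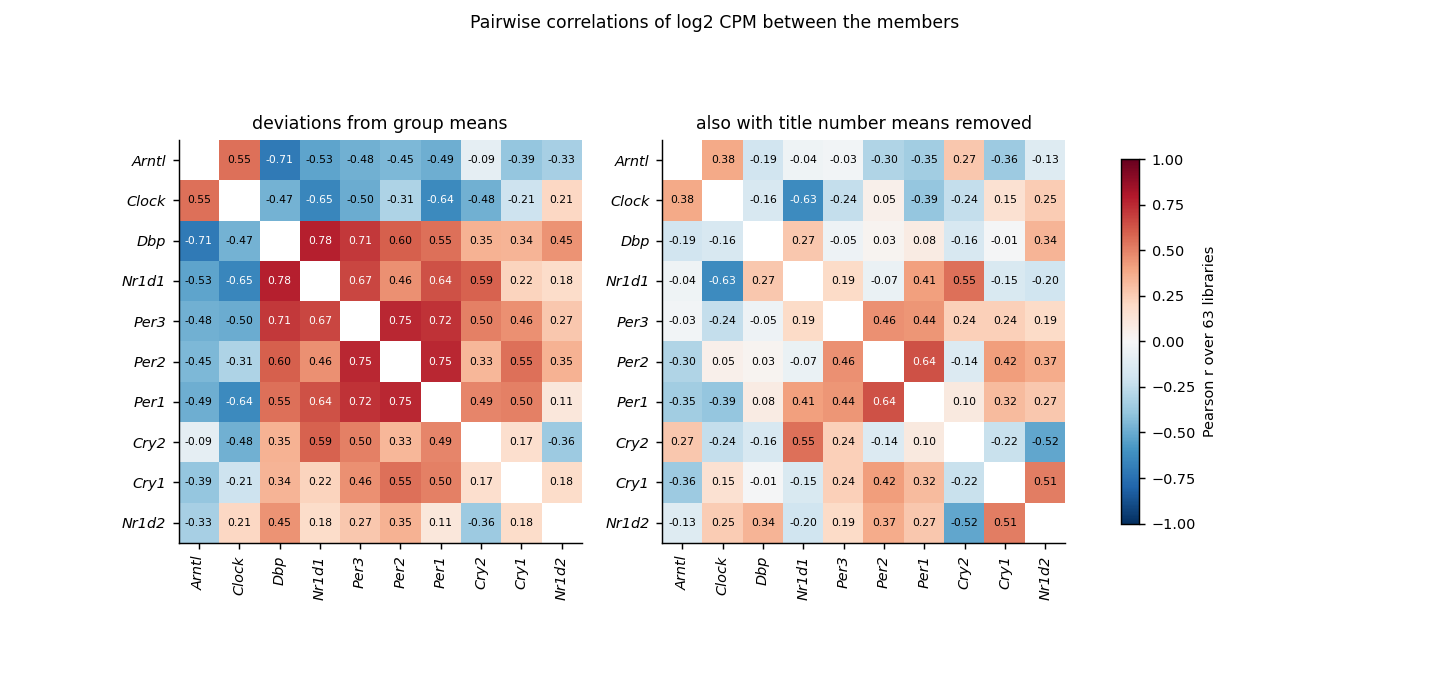
Pearson r of log2 CPM between members over 63 libraries, after subtracting group means (left) and after subtracting set means as well (right), from -1 (blue) to 1 (red). Dbp and Nr1d1 have 0.78 on the left and 0.27 on the right, while Per1 and Per2 have 0.75 and 0.64.

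The genes outside the members whose levels were most like those of Dbp over the 63 libraries, among 12904 genes, were Ciart (r = 0.89), Bhlhe41 (0.74), Cdk5rap3 (0.74), Plekhh3 (0.72) and Axin1 (0.71). The most opposed were Pdp1, which encodes a phosphatase that activates pyruvate dehydrogenase (-0.74), Sat1, of polyamine breakdown (-0.70), Id2, an inhibitor of basic helix-loop-helix factors (-0.68), Ino80d (-0.67) and Fabp7, the brain fatty acid binding protein (-0.67). For Arntl the most alike were AC127249.1 (0.73), Nmt2 (0.71), Btbd10 (0.70), Dcaf13 (0.68) and Hace1 (0.68), and the most opposed Tspan4 (-0.70), Gatad2a (-0.69), Ciart (-0.69), Arvcf (-0.67) and Fkbp10 (-0.67). For Per1 they were Kdm6b, a histone demethylase (0.79), Slc12a9 (0.75), Midn (0.75), Kndc1 (0.75) and Ctsf (0.73), and the most opposed Eri2 (-0.77), Atad1 (-0.75), Rpl15 (-0.75), Klhl9 (-0.74) and Zfp706 (-0.73). These r share libraries and depth and are given as descriptions. Set means were not removed from them, and 90.4% of the within-group variance of Dbp and 85.4% of that of Ciart lay between sets.

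Between the strains, 3 of the 10 members changed, against 50.0% of all genes. Only GRCm38 is named as the genome build, for both strains. The part of sequence differences between strains in any strain comparison here, of genes or of transcripts, was not tested. Per3 was higher in DBA/2J, with 53.0 to 80.3 CPM (median 67.8, n = 32) in DBA/2J and 49.4 to 71.8 CPM (median 57.4, n = 31) in C57BL/6J. The ranges overlapped, and the log2 difference was 0.19 (SE 0.04, adjusted p = 1.8e-05). Arntl was higher in DBA/2J, at 32.4 to 44.0 CPM (median 36.9) in DBA/2J and 24.1 to 39.6 CPM (median 33.7) in C57BL/6J, a log2 difference of 0.16 (SE 0.04, adjusted p = 0.00097). Cry1 was lower in DBA/2J, at 9.38 to 14.6 CPM (median 11.7) in DBA/2J and 10.9 to 15.6 CPM (median 12.8) in C57BL/6J, a log2 difference of -0.10 (SE 0.04, adjusted p = 0.0207). Dbp averaged 72.1 ± 14.2 CPM in DBA/2J and 70.6 ± 12.1 CPM in C57BL/6J (SD, n = 32 and 31; log2 difference 0.03, SE 0.07, adjusted p = 0.759). Per1 missed the threshold at 0.08 (SE 0.04, adjusted p = 0.0616), and so did Per2 (-0.07), Nr1d2 (-0.05), Cry2 (-0.02), Clock (0.01) and Nr1d1 (0.01), with adjusted p-values of 0.18 to 0.889.

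**Figure D4:**
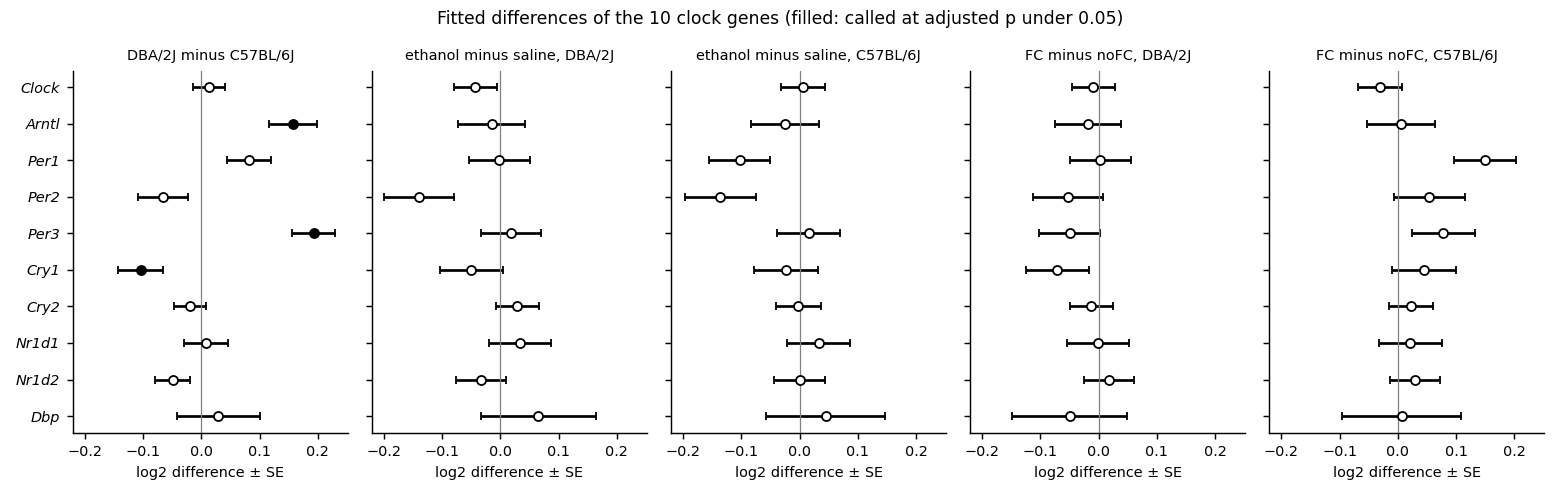
Fitted log2 differences (horizontal axes, points with SE bars) of the 10 members for DBA/2J minus C57BL/6J, ethanol minus saline and FC minus noFC, the last 2 within each strain; filled points passed an adjusted p of 0.05. Filled points appear only in the strain panel, for Per3 (0.19), Arntl (0.16) and Cry1 (-0.10).

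The summed level of the 7 oligodendrocyte markers moved with strain, at a mean of 9770 CPM (range 4750 to 13400) in DBA/2J and 12700 CPM (7790 to 16900) in C57BL/6J, and its part in the strain differences was not tested. Libraries of a set share their strain, and the clock gene levels differed between sets. With counts summed per set, 8 per strain, Per3 kept its call (log2 difference 0.20, SE 0.06, adjusted p = 0.00902). Arntl (0.14, SE 0.06, adjusted p = 0.0768) and Cry1 (-0.11, SE 0.05, adjusted p = 0.0892) did not, and 1 of 10 members was called in all, against 43.1% of all genes in that fit. Within rounds, the log2 difference of Per3 was 0.16 in the second (adjusted p = 0.0534) and 0.23 in the first (0.000371). That of Arntl was 0.19 in the second round (0.00932) and 0.11 in the first (0.0984), and that of Cry1 -0.07 in the second (0.381) and -0.13 in the first (0.012). Leaving out set 2 of the DBA/2J males, set 2 of the DBA/2J females, set 3 of the C57BL/6J males, set 3 of the C57BL/6J females or set 4 of the DBA/2J males also lost the call of Cry1, at adjusted p-values of 0.052 to 0.086, and leaving out DBA/2J female set 1, C57BL/6J female set 2 or 3, C57BL/6J male set 3 or DBA/2J male set 4 brought Per1 under the threshold, at 0.00543 to 0.049.

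Of the 18 other clock genes, 2 were higher and 9 lower in DBA/2J than in C57BL/6J, against 50.0% of all genes called in either direction. Btrc and Fbxw11, which encode the F-box proteins that mark PER proteins for degradation, had 60.9 ± 3.6 and 168 ± 10 CPM in DBA/2J, and 76.9 ± 3.98 and 190 ± 10.5 CPM in C57BL/6J (log2 differences -0.335 and -0.181, adjusted p = 3.54e-20 and 1e-11). Arntl2, the relative of Arntl, had 8.9 ± 0.914 CPM in DBA/2J and 14.2 ± 1.58 in C57BL/6J (log2 difference -0.677, adjusted p = 5.96e-20). Bhlhe40 had 72.9 ± 7.39 CPM in DBA/2J and 97.1 ± 9.35 in C57BL/6J (-0.415, adjusted p = 2.92e-16), and Bhlhe41 36.7 ± 3.48 in DBA/2J and 42.8 ± 2.84 in C57BL/6J (-0.219, adjusted p = 2.29e-08). Fbxl21 had low levels in both strains, at 2.05 ± 0.342 CPM in DBA/2J and 2.56 ± 0.389 in C57BL/6J (-0.318, adjusted p = 3.04e-06). The median log2 difference was 0.01 for the members and -0.05 for the 18 other genes. Libraries of a set were taken as independent in these tests, although Bhlhe40 and Bhlhe41 were called for the set. Values from counts summed per set were not taken for these 18 genes.

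Some members also differed between strains in the transcripts they used. The division of a gene's estimated counts among its transcripts (transcript usage) could be tested for 5 members, of which Dbp, Arntl and Clock changed between strains, against 25.6% of all genes tested. Adjusted p-values below are those of the whole gene, unless given for a transcript alone. Dbp-205, a transcript with a retained intron, took 9.74 to 16.4% of the Dbp counts in DBA/2J libraries and 6.38 to 11% in C57BL/6J libraries. Its mean share was 12.1 ± 1.82% in DBA/2J and 9.12 ± 1.37% in C57BL/6J (SD, n = 32 and 31), while the coding transcript Dbp-201 took 79.0 ± 3.36% in DBA/2J and 81.4 ± 4.13% in C57BL/6J (adjusted p = 0.00314). For Arntl, the coding transcript Arntl-206 took 12.4 ± 8.79% in DBA/2J and 14.9 ± 7.04% in C57BL/6J (adjusted p = 0.0145), with libraries from 0.0 to 37.4% in DBA/2J. For Clock (adjusted p = 0.0486), Clock-201 took 10.1 ± 4.54% in DBA/2J and 11.6 ± 4.53% in C57BL/6J. Its ranges overlapped (0.0 to 20.9% in DBA/2J and 1.44 to 21.3% in C57BL/6J). In limma's test of each transcript alone, Clock-201 did not pass (adjusted p = 0.0664), while Dbp-205 (0.00449) and Arntl-206 (0.0201) did. Per1 (adjusted p = 0.0515) and Per3 (0.132) were not called. For ethanol and for conditioning, 0 of 5 members were called for usage in limma, against 1.89% and 0.565% of all genes, with 1 member at an unadjusted p under 0.05 for each, Clock for ethanol and Arntl for conditioning.

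No member passed the test for ethanol in edgeR's fit of the 16 groups. That fit has no term for the set, and the call of Per2 differed in the fit with one, which is given with the alternatives. In DBA/2J 0 of 10 were called against 0.295% of all genes, in C57BL/6J 0 of 10 against 0.0901%, and over both strains 0 of 10 against 0.546%. In each of these tests 1 member, Per2, had an unadjusted p under 0.05, against 8.36% of all genes in DBA/2J, 4.22% in C57BL/6J and 8.6% over both. DESeq2 also called 0 of 10. Per2 had 37.0 to 54.4 CPM (median 48.5, n = 16) with ethanol and 37.8 to 71.5 CPM (median 52.6, n = 16) with saline in DBA/2J. In C57BL/6J it had 43.1 to 62.0 CPM (median 50.4, n = 16) with ethanol and 46.8 to 68.5 CPM (median 53.9, n = 15) with saline. The ranges overlapped in both strains. The log2 difference was -0.14 (SE 0.06) in each strain and -0.14 (SE 0.04, unadjusted p = 0.00236, adjusted p = 0.174) over both. It was -0.22 in the second round (unadjusted p = 0.00457) and -0.04 in the first (0.464). Ethanol libraries carry the title letters C and D in the first round and A and B in the second. Within a round, ethanol therefore cannot be told apart from these letters. The difference between rounds is covered by the edgeR contrast of letters C and D against A and B. For Per2 that contrast was 0.09 (SE 0.044, unadjusted p = 0.0502, adjusted p = 0.519). Per1 stood at -0.05 over both strains (SE 0.04, adjusted p = 0.79), and Dbp at 0.055 (SE 0.071, adjusted p = 0.935), with 72.7 ± 13.2 CPM with ethanol and 70.0 ± 13.1 CPM with saline (SD, n = 32 and 31). The other 7 members lay between -0.04 and 0.03. Of the 18 other clock genes, 0 were called for ethanol in either strain or over both, with 2 at an unadjusted p under 0.05 in DBA/2J, 1 in C57BL/6J and 1 over both.

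**Figure D5:**
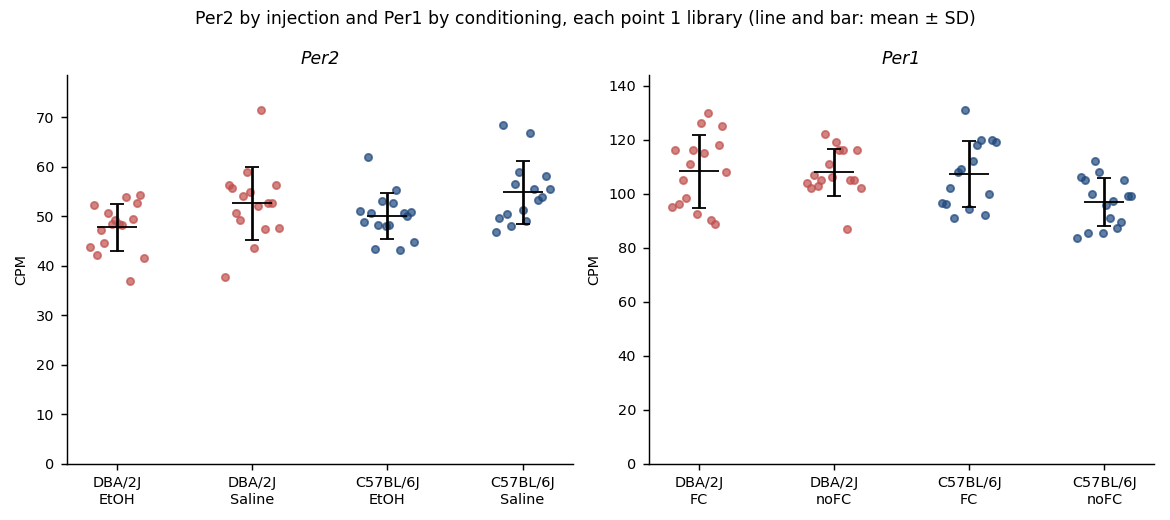
CPM of Per2 by injection (left) and of Per1 by conditioning (right) in each library (points) of DBA/2J (red) and C57BL/6J (blue), with mean and SD in black. Per2 averages 47.8 with ethanol and 52.6 with saline in DBA/2J, and Per1 averages 107 with FC and 96.9 with noFC in C57BL/6J; the ranges overlap in every pair.

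No member passed the test for fear conditioning either. All FC libraries carry the title letters A or C and all noFC libraries B or D. Conditioning therefore cannot be told apart from whatever that split of letters stands for. In DBA/2J 0 of 10 were called against 0.0% of all genes, in C57BL/6J 0 of 10 against 0.0%, and over both strains 0 of 10 against 0.02%, in edgeR, and DESeq2 called 0 of 10 in each. Members with an unadjusted p under 0.05 numbered 0 in DBA/2J, 1 in C57BL/6J and 1 over both, in each case Per1, which in neurons is also induced by activity through cAMP signalling. The shares of all genes at that cut were 3.35% in DBA/2J, 3.94% in C57BL/6J and 3.49% over both. In C57BL/6J Per1 had 90.9 to 131 CPM (median 108, n = 15) with FC and 83.6 to 112 CPM (median 98.2, n = 16) with noFC, a log2 difference of 0.15 (SE 0.05, unadjusted p = 0.00684, adjusted p = 1.0). In DBA/2J it had 88.9 to 130 CPM (median 110, n = 16) with FC and 87.0 to 122 CPM (median 105, n = 16) with noFC, and the log2 difference was 0.003 (SE 0.05). The ranges overlapped in both strains, and the difference between the strains was -0.15 (SE 0.075, unadjusted p = 0.0545, adjusted p = 1.0). The C57BL/6J value was 0.17 in the second round and 0.10 in the first. Per2 had 53.3 ± 7.3 CPM with FC and 51.6 ± 4.5 CPM with noFC in C57BL/6J (SD, n = 15 and 16), and 49.3 ± 8.3 CPM with FC and 51.1 ± 4.39 CPM with noFC in DBA/2J (n = 16 each). Dbp and Arntl lay between -0.05 and 0.01 in both strains.

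Between males and females 0 of 10 members were called in edgeR, against 0.2% of all genes, and DESeq2 called 0. An unadjusted p under 0.05 was reached in edgeR by 0 members, against 5.48% of all genes. The log2 differences, male minus female, ran from -0.06 (Nr1d1) to 0.07 (Per3). Tests of differences between effects called 0 of 10 members in all 6 cases: the ethanol effect between strains (0.01% of all genes), between conditioning states (0.0%) and between sexes (0.0%), the conditioning effect between strains (0.0%) and between sexes (0.0%), and the strain effect between sexes (0.0%). DESeq2, run for the same 6, also called 0. Members with an unadjusted p under 0.05 were Nr1d1 for the strain effect between sexes and Arntl for the conditioning effect between sexes. Of all genes, 3.55% passed that cut for the strain effect between sexes and 18.4% for the conditioning effect between sexes. Nr1d1 had set means of 81.0, 93.7, 94.1 and 77.9 CPM in DBA/2J males and 73.4, 77.2, 83.8 and 83.2 CPM in C57BL/6J males. In females they were 75.7, 89.7, 91.9 and 77.1 CPM in DBA/2J and 84.4, 95.4, 97.1 and 83.3 CPM in C57BL/6J. The difference of the strain effect, males minus females, was 0.23 on the log2 scale (SE 0.08, unadjusted p = 0.00394, adjusted p = 1.0). Libraries of a set share strain and sex, and 65.7% of the within-group variance of Nr1d1 lay between sets. The p-values of this contrast and of the sex contrast take the libraries of a set as independent. For Arntl the conditioning effect was lower in males by 0.19 on the log2 scale (-0.19, SE 0.08, unadjusted p = 0.0241, adjusted p = 0.2).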

How the data were processed

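RNA of the 63 dorsal hippocampus libraries was prepared with a stranded poly(A) kit and read from one end, per the labels' protocols. The authors deposited gene counts, whole numbers for 55401 genes, and expected counts, estimated counts per transcript that were rounded here before testing. The submitters' processing notes name GRCm38 and the tools HISAT2, featureCounts, fastp, DESeq2 and Salmon. Versions and the strand setting are not given in the sources used here. Annotation was GENCODE M21.

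Genes were filtered with filterByExpr (minimum count 10, 16 groups), which kept 19974, and scaled by TMM. Contrasts were tested with edgeR 4.0.16 (quasi-likelihood, 1 coefficient per group, two-sided, Benjamini-Hochberg over all genes of a contrast, call at an adjusted p under 0.05). Log2 differences are DBA/2J minus C57BL/6J, ethanol minus saline, FC minus noFC, male minus female, and second minus first round of title numbers. Sets are the title numbers, and the set test is a joint F-test of a set block beside the groups. Log2 CPM used a prior count of 2. Transcript usage used voom and diffSplice in limma 3.58.1, for transcripts with at least 5% of their gene's counts. Correlations used deviations from group means, 100000 permutations and adjustment over 45 pairs. Libraries were permuted within groups for r over all libraries and within sets for r within sets. For the set means, the 16 sets were permuted freely across strain and sex. The last 2 ways do not keep the group structure of the deviations, so their p-values are approximate. Upstream sequences came from RefSeq (GRCm38.p6). Steps were tested on simulated data.

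Depth ran from 21027659 to 61631742 counts. The members, gene lists and tests were chosen with earlier results of these data known. Some clock genes were left out of the list and are not reported here. Of the other clock genes, up to 6 called per contrast with the smallest p are named, and further ones were chosen after their values were seen. For Dbp, Arntl and Per1 the 5 genes with the highest and the lowest r are named (mean log2 CPM above 1, without symbols of Gm and digits or ending in Rik). Alternatives were RLE scaling, DESeq2 1.42.0, no filter, gene sums of transcript counts, a replicate block, each round, each strain, a letter or choroid plexus covariate, and leaving out each set. Sums per set, and the set tests of 1 strain or 1 round, were chosen after seeing the data.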

Additional observations from a re-analysis of the deposited data

Results flagged for a closer look

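In each member and each group of 4 libraries, the highest or lowest library was set against the others of its group, and in 10 of 150 such groups (6.67%) it lay apart by Dixon's test, where chance gives about 1 in 20. Per1 had 87.0 CPM in the ethanol, noFC, DBA/2J male library of set 4, and the other 3 had 116 to 119 CPM. Cry1 was also low in that library, at 11.2 CPM with 11.8 to 11.9 CPM in the others. Per2 was high in both fear-conditioned C57BL/6J female libraries of set 3, at 62.0 CPM with ethanol (others 48.8 to 51.0) and 68.5 CPM with saline (others 46.8 to 50.4). Per2 had 44.8 CPM in the ethanol, noFC, C57BL/6J male library of set 4 (others 50.0 to 50.9). Cry1 had 13.4 CPM in the saline, FC, DBA/2J female library of set 3 (others 10.7 to 11.1). Arntl had 26.7 CPM in the ethanol, noFC, C57BL/6J female library of set 2 (others 33.1 to 33.5) and 40.9 CPM in the saline, noFC, DBA/2J female library of set 1 (others 36.2 to 36.9). Nr1d2 was high in set 4 of the C57BL/6J females, at 116 CPM with ethanol and noFC (others 92.9 to 95.7) and 106 CPM with saline and FC (others 91.4 to 93.1).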

How the results depend on the processing

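Of 285 alternative counts of called members or pairs, 278 stayed within 1.5 times the reported count, and of 494 alternative values of single members, 437 kept direction and side of the threshold or moved within their spread. The reported count was 0 for ethanol, conditioning, sex and the differences between effects, and 0 that stayed 0 is among the 278. Strain counts of 2 to 4 in place of 3 are among them too. No called value changed sign. With counts summed per set (title number), 1 member was called between strains in place of 3. The set test called 5 members in the second round, 4 in the first and 2 in DBA/2J alone, in place of 9, and within sets 9 pairs of members correlated in place of 34; the cause was not tested. Leaving out each set gave 2 to 4 members for strain, 6 to 9 for the set test and 0 for ethanol, conditioning and sex.

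Title numbers did not meet the criterion for pairing, which was taken over all genes and not over the members. Of 93 pairs of libraries sharing a number, 32 had r above 0.1 (range -0.52 to 0.48), and 6 of 63 libraries correlated best with their own number. For the members themselves, the set test called 9 of 10, Per2 among them. In the paired fit (replicate block), 1 member was called for ethanol over both strains, Per2 (log2 difference -0.136, SE 0.028, adjusted p = 0.00771), and the genes called numbered 156 in place of 109. With a letter term and the replicate block 1 member was called, again Per2 (-0.133, adjusted p = 0.00222). Strain and sex have no paired value, since each number holds 1 strain and sex. Cry1, with 232 to 896 counts per library, was the least deeply counted member.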
